A study of Mus musculus with 8 samples.

Results

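The genes of the secretory pathway and the unfolded protein response were followed in whole mouse knee joints, as 48 genes taken by name from the 20681 rows of the expression table. The list covers the channel that admits proteins into the endoplasmic reticulum (ER), the chaperones and folding enzymes inside it, the stress sensors and transcription factors that adjust it, and the coat proteins that carry cargo to the Golgi and return escaped proteins. All 48 were found and all passed the filter on low values. The study sequenced poly-A RNA from 8 knee joints, 4 labelled control and 4 labelled knockout for Loxl2, which encodes a collagen-crosslinking lysyl oxidase. By the series text, the 8 joints came from mice with the genotype Acan-Cre;Loxl2 fl/fl, the controls received vehicle, and the library names read Vehicle, DMM and LOXL2wt for the controls and KO, DMM and LOXL2ko for the others. DMM is not spelled out in the labels and usually stands for surgical destabilisation of the medial meniscus, and all 8 libraries carry it. Acan, the aggrecan gene, is active mainly in cartilage cells, so that Cre is aimed at them, and the labels give no measure of the deletion in these or other cells of the joint. Age, sex and what the knockout animals received in place of vehicle are not given in the labels, and nothing there says that the 4 libraries of a group came from separate animals, so p-values measure the spread between these samples.

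Proteins bound for the cell surface or the matrix enter the ER through the Sec61 channel, lose their signal peptide, fold with the help of chaperones, and gain disulfide bonds and the right proline bonds before COPII-coated vesicles take them onward. When unfolded protein builds up, the sensors IRE1, ATF6 and PERK raise chaperone genes and slow translation, which is called the unfolded protein response. In joints, cells that make matrix, such as fibroblasts, osteoblasts and chondrocytes, depend heavily on this machinery, because collagen needs its own set of prolyl isomerases and an enlarged vesicle coat.

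Values are normalised read counts, that is, reads per gene divided by a size factor of the library, and the libraries held 13991000 to 17411617 reads each. A difference is the mean of log2(value + 1) in the libraries labelled knockout minus that in the control libraries, given with the standard error (SE) of a linear model fitted with limma. A gene is called at a Benjamini-Hochberg adjusted p under 0.05 over all 14949 genes tested. Loxl2 itself had 282, 349, 1135 and 311 normalised reads in control replicates 1, 2, 3 and 4, and 893, 1468, 960 and 1518 in those labelled knockout, and all values by library follow this order. It was therefore higher in the libraries labelled knockout, against the label, by a log2 difference of 1.44 (SE 0.40, limma adjusted p = 0.0294), and control replicate 3 overlapped the other group. The call was lost with edgeR (adjusted p = 0.0669), with DESeq2 (0.0659), and when any of control replicates 1, 2 and 4 and knockout replicates 2 and 4 was left out, with limma adjusted p-values of 0.0666 to 0.0849. Each group keeps the name its label gives.

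Of the 48 genes, 19 rose in the libraries labelled knockout and 0 fell, which is 39.6% called, while 23.2% of all genes tested were called, 11.6% higher and 11.6% lower. Without adjustment, 26 of the 48 had a limma p under 0.05, against 38.4% of all genes, and 37 had a difference above 0, against 50.1%. The median difference of the 48 was 0.24 on the log2 scale, against 0.00 over all genes. The groups did not overlap for 17 of the 48 on the higher side and 2 on the lower side, and the share of all genes with such separate groups was 11.7% higher and 13.4% lower. The rises were unevenly spread over the roles. All 10 disulfide isomerases, prolyl isomerases and the oxidase rose, as did 4 of 9 export and retrieval genes, 2 of 12 translocon and signal peptidase genes, 2 of 8 sensors and transcription factors, and 1 of 9 chaperones and cochaperones. The median difference was 0.87 for the isomerases and oxidase, 0.29 for export and retrieval, 0.16 for the translocon group, 0.12 for the sensors and factors, and 0.07 for the chaperones. Leaving out knockout replicate 4 reduced the 19 calls to 11, and the balance of calls over all genes depends on scaling, as given with the marker lists below. Counts by role depend on scaling too. With quantile normalisation, 1298 of 14949 genes rose, among them 9 of 10 isomerases and oxidase and 7 of 9 export genes. So did 3 of 9 chaperones, 3 of 12 translocon genes and 2 of 8 sensors and factors. With the scaling on the total described there, 2708 genes rose, and the same counts by role were 10, 5, 3, 6 and 3.

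**Figure D1:**
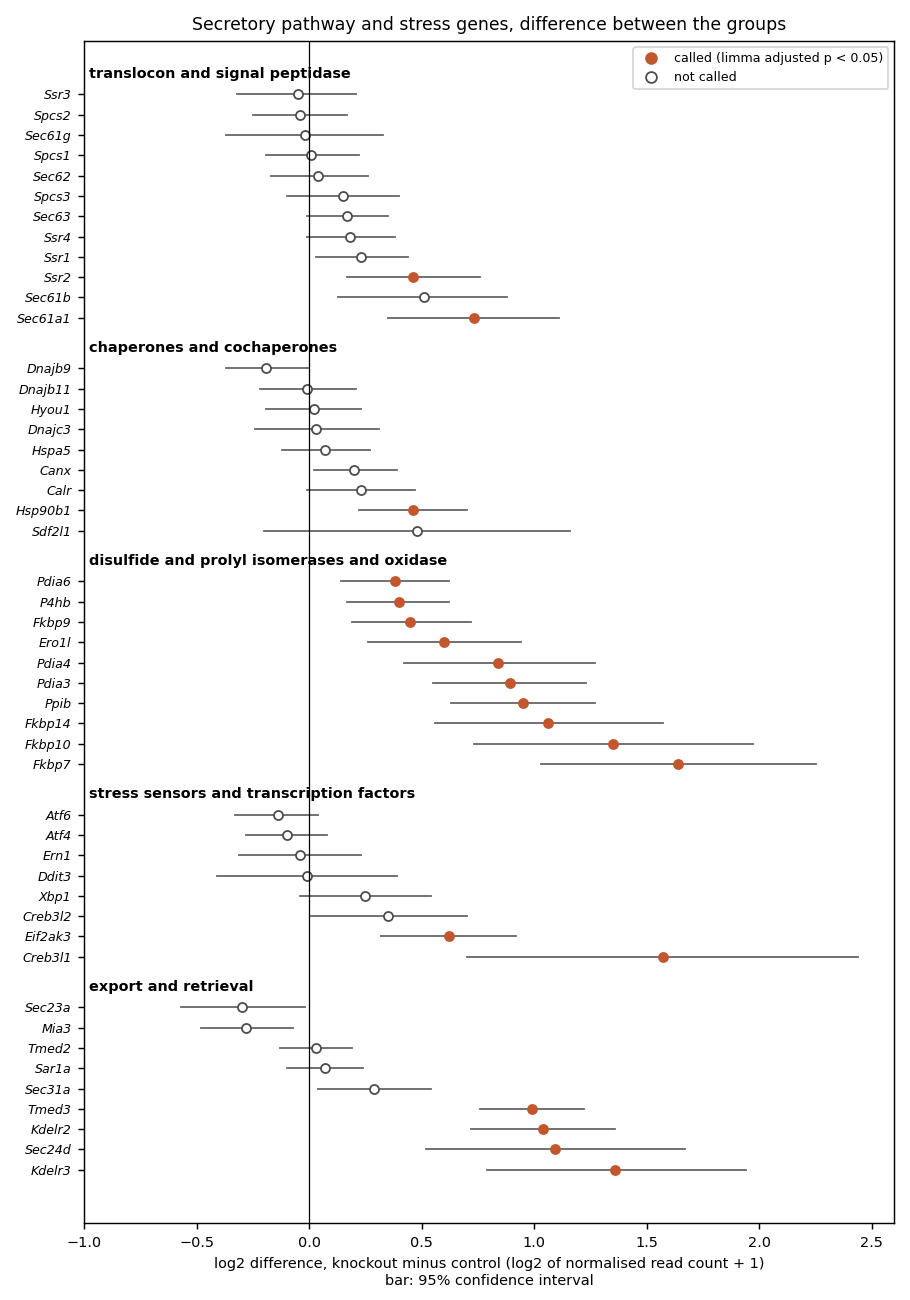
Log2 difference of each of the 48 genes between the libraries labelled knockout and the control libraries (4 each), grouped by role, with 95% confidence intervals of the limma fit on the horizontal axis; filled points are called at an adjusted p under 0.05. All 10 isomerase and oxidase genes are filled and lie between 0.38 and 1.64, and the chaperones lie between -0.19 and 0.48.

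The isomerases and the oxidase moved together, with differences from 0.38 to 1.64, and the groups were separate for 9 of the 10. The largest rise was in Fkbp7, which encodes a small ER prolyl isomerase. Fkbp7 stood at 124, 70.7, 178 and 104 normalised reads in the control libraries and at 429, 408, 245 and 369 in those labelled knockout. Every library labelled knockout was above every control library, with control replicate 3 the highest control and knockout replicate 3 the lowest of the other group. The difference was 1.64 (SE 0.27, limma adjusted p = 0.00574), a 3.12-fold rise. Fkbp10 encodes FKBP65, a prolyl isomerase and chaperone of type I procollagen. Its values were 602, 452, 685 and 257 in the control libraries and 1305, 1204, 897 and 1463 in those labelled knockout, again without overlap, a difference of 1.35 (SE 0.28, limma adjusted p = 0.0107). Fkbp14, whose human counterpart is mutated in a kyphoscoliotic form of Ehlers-Danlos syndrome, had 194, 153, 294 and 161 reads in the control libraries and 410, 439, 296 and 510 in those labelled knockout. The groups of Fkbp14 were narrowly separate, with control replicate 3 just under knockout replicate 3, and the difference was 1.06 (SE 0.23, limma adjusted p = 0.0118). Fkbp9, a larger relative with several isomerase domains, moved less. It had 1912, 1694, 2043 and 1654 reads against 2567, 2646, 2001 and 2815, with control replicate 3 above knockout replicate 3, and a difference of 0.45 (SE 0.12, limma adjusted p = 0.0246).

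Ppib encodes cyclophilin B, the isomerase that works with prolyl 3-hydroxylase on procollagen. It had 279, 274, 353 and 239 normalised reads in the control libraries and 509, 550, 483 and 666 in the libraries labelled knockout. The groups were well apart, and the difference of 0.95 (SE 0.14, limma adjusted p = 0.00456) had the smallest p of the group. Exons of Ppib overlap Snx22 on the opposite strand, and since the use of strand in the counting is not stated, its reads were not necessarily kept apart from those of that gene. Exons of 17 of the 48 genes are overlapped on the opposite strand in the annotation, among them Pdia3, Pdia6, Fkbp10, Fkbp14, Kdelr3 and Sec61a1, and the same limit holds for them.

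Among the disulfide isomerases, Pdia3, which acts on glycoproteins held by calnexin and calreticulin, had 1185, 1007, 1389 and 995 reads in the control libraries and 2130, 2390, 1601 and 2405 in those labelled knockout. This was a 1.86-fold rise with separate groups (log2 difference 0.89, SE 0.15, limma adjusted p = 0.00608). Pdia4, another disulfide isomerase of the ER, rose by 0.84 (SE 0.19, limma adjusted p = 0.0148), from 241 to 460 reads in the control libraries to 465 to 587 in the others. Control replicate 3 of Pdia4, at 460, lay just under knockout replicate 3, at 465. P4hb encodes protein disulfide isomerase, which is also the beta subunit of collagen prolyl 4-hydroxylase. Per kilobase of exon it had the highest mean level of the 48 genes in the libraries labelled knockout, 1680 normalised reads per kilobase, and it shared the highest with Atf4 in the control libraries at 1280. P4hb rose by 0.40 (SE 0.10, limma adjusted p = 0.0231), from 3261 to 4146 reads in the control libraries to 4357 to 5442 in the others. Pdia6 rose by 0.38 (SE 0.11, limma adjusted p = 0.0310), from a control range of 781 to 974 reads to a range of 1002 to 1257. Ero1l, the oxidase that recharges protein disulfide isomerase, was the least abundant of the 10 per kilobase in the control libraries, at 23.2, and rose by 0.60 (SE 0.15, limma adjusted p = 0.0213). Its highest value, 238, was in knockout replicate 3, which was the lowest library labelled knockout for the other 9 genes of the group.

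**Figure D2:**
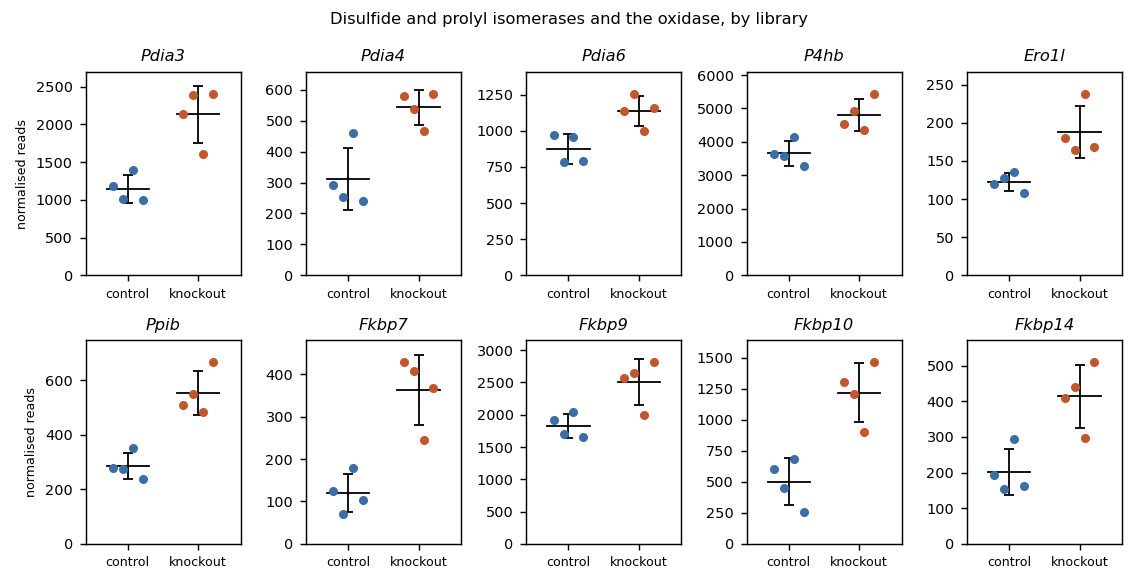
Normalised read counts of the 10 isomerase and oxidase genes in each library (points), with the group mean (line) and SD (bar), n = 4 per group; each vertical axis starts at 0. The libraries labelled knockout lie above all control libraries for 9 of the 10 genes, Fkbp9 being the exception.

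These calls differ in how far they rest on single libraries. Pdia3, Pdia4, Ppib, Fkbp7, Fkbp10 and Fkbp14 stayed called when any 1 of the 8 libraries was left out. Pdia6 and Fkbp9 lost the call in 5, without control replicates 2 and 4 and without knockout replicates 1, 2 and 4. P4hb lost it in 4, without control replicates 2 and 4 and knockout replicates 2 and 4, and Ero1l lost it without control replicate 4 (limma adjusted p = 0.0561). Under those same 8 fits the number of the 10 genes called ranged from 6, without control replicate 4, to 10.

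The chaperones form the group that the unfolded protein response is best known to raise, and their promoters are the classic place of its control element. That element, the ER stress response element (ERSE), has the form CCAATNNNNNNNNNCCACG and is bound by ATF6 together with the factor NF-Y. In RefSeq promoter windows of build GRCm38.p6, 250 bases before to 50 after the start site, 39 of the 48 genes matched an entry. The ERSE was found on either strand in 6 of these 39 genes (15.4%) and in 0.137% of all 27025 genes with a window, or 0.119% of all 32851 windows. A match is a description of the letters and not a measured binding site. Since chaperone promoters are the classic place of this element, its higher share among the listed genes was known beforehand. The share is no result of these data. The stretches around the matches are shown 5′ to 3′ on the strand of each gene, with the match in capitals, because they mark the members that carry this element. Calr and the second stretch of Hsp90b1 hold it on the opposite strand. In the annotation used for exons, Hspa5 starts at chr2:34771970, so by that start its match lies inside the gene.
Hspa5 (chr2:34772020-34772048, plus strand): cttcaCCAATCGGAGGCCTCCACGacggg
Hsp90b1 (chr10:86705608-86705686, minus strand): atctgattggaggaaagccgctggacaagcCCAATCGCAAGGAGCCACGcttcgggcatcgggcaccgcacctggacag
Hsp90b1, second stretch (chr10:86705503-86705581, minus strand): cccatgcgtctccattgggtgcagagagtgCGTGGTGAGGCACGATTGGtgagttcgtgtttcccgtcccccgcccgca
Calr (chr8:84847045-84847123, minus strand): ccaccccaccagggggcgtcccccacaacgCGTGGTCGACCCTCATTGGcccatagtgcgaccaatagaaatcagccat
Canx (chr11:50325770-50325848, minus strand): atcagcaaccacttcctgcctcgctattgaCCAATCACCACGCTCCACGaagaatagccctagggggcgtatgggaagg
Dnajc3 (chr14:118937797-118937875, plus strand): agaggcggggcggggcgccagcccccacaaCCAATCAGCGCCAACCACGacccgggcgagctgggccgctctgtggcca
Pdia6 (chr12:17266461-17266539, plus strand): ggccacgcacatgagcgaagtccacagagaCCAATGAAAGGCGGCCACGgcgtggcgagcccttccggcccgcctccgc

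Of these 6 genes with an ERSE match, 2 rose, Hsp90b1 and Pdia6, and 0 fell, with differences of 0.03 to 0.46. Over all genes tested 11.6% rose and 11.6% fell, and with 6 genes the shares were not compared. The related form ERSE-II, which is ATTGG and CCACG with 1 base between them, was found in Dnajb11, with 0.0444% of all genes holding it. The match of Dnajb11 lies after its start site, and the gene had a difference of -0.01. The form TGATGCAA, part of the element through which ATF4 acts, was found in none of the 39 genes and in 1.03% of all genes with a window. At so low a share a list of 39 genes can easily hold none, so nothing is drawn from its absence.

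Among the 9 chaperones and cochaperones, Hsp90b1 was the one that rose. It encodes GRP94, the ER relative of HSP90. Its values were 1294, 1341, 1573 and 1264 reads in the control libraries and 1832, 2107, 1595 and 1994 in those labelled knockout. Knockout replicate 3 lay just above control replicate 3, so the groups were separate but close, and the difference was 0.46 (SE 0.11, limma adjusted p = 0.0167). The call was lost without knockout replicate 4 (limma adjusted p = 0.0513). Hspa5 encodes BiP, the main HSP70 of the ER and the usual marker of ER stress. It had 3211, 2819, 3155 and 2782 reads in the control libraries and 2889, 3436, 3059 and 3218 in those labelled knockout. The ranges overlapped, with control replicates 2 and 4 below every library labelled knockout and knockout replicates 2 and 4 above every control library. The difference was 0.07, with a 95% confidence interval from -0.12 to 0.27 (limma adjusted p = 0.563). Over 20 alternative settings the difference of Hspa5 ranged from -0.09 to 0.29, and it was called in 0 of them.

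Calr and Canx encode calreticulin and calnexin, the soluble and the membrane-bound lectin chaperone of glycoproteins. Calr had 2488, 2200, 2699 and 2044 reads in the control libraries and 2679, 2881, 2440 and 3003 in those labelled knockout, a difference of 0.23 (interval -0.01 to 0.47, limma adjusted p = 0.150). Canx had 1652, 1596, 1695 and 1575 against 1899, 1870, 1670 and 2076, a difference of 0.20 (interval 0.02 to 0.39, limma adjusted p = 0.102). For both, knockout replicate 3 lay inside the control range, and for Calr knockout replicate 1 did too. Canx was called without knockout replicate 3 (limma adjusted p = 0.0397). Both were called with quantile normalisation (0.0334 for Calr, 0.0251 for Canx) and with the scaling on the total given below (0.0447 and 0.0223). Dnajb9 encodes ERdj4, a BiP cochaperone that IRE1 signalling raises. Dnajb9 had lower values in the libraries labelled knockout, with 621, 619, 621 and 584 reads in the control libraries and 539, 548, 484 and 580 in those labelled knockout. Its groups did not overlap, but the difference of -0.19 was not called (SE 0.08, limma adjusted p = 0.133). Dnajb11, which encodes another BiP cochaperone, had 753, 712, 799 and 669 reads against 654, 686, 799 and 785. The intervals of the remaining cochaperones and relatives included 0. Dnajc3 differed by 0.03 (SE 0.12), Hyou1, the large HSP70-like exchange factor of BiP, by 0.02 (SE 0.10), and Sdf2l1 by 0.48 (SE 0.30) at only 35.1 to 115 reads.

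The sensors and transcription factors were examined in every library. Ern1 encodes IRE1, the kinase and nuclease that splices Xbp1 mRNA. It had 336, 383, 371 and 310 reads in the control libraries and 343, 287, 337 and 400 in those labelled knockout, a difference of -0.04 (interval -0.31 to 0.23). Atf6, the membrane-bound factor that is cut free in the Golgi, had 548, 623, 595 and 591 against 550, 564, 530 and 493, a difference of -0.14 (SE 0.08, limma adjusted p = 0.240). Neither of these sensors passed the test. Eif2ak3, which encodes PERK, the kinase that slows translation through eIF2alpha, did. It had 131, 128, 180 and 140 reads in the control libraries and 210, 231, 212 and 231 in those labelled knockout. The groups were separate, the libraries labelled knockout varied little among themselves, and the difference was 0.62 (SE 0.14, limma adjusted p = 0.0131). It also stayed called whichever library was left out.

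The factors downstream of the sensors were not called. Xbp1, the target of IRE1, had 1952, 1597, 1510 and 1228 reads against 1740, 1802, 2018 and 1842, a difference of 0.25 (SE 0.13, limma adjusted p = 0.179). Control replicate 1 overlapped the other group, and without it Xbp1 was called, at 0.36 (limma adjusted p = 0.0486). Read counts per gene do not separate its spliced from its unspliced form. Atf4, which PERK signalling raises at the level of translation, had 2759, 3183, 2950 and 3213 reads in the control libraries and 2665, 2757, 2971 and 2914 in those labelled knockout, a difference of -0.10 (SE 0.08, limma adjusted p = 0.408). Ddit3 encodes CHOP, the factor linked to cell death under long ER stress. It had 309, 428, 279 and 416 reads against 316, 310, 465 and 330, a difference of -0.01 (interval -0.41 to 0.39, limma adjusted p = 0.981), and its highest value, 465, was in knockout replicate 3. The annotation holds a pair of overlapping loci under the symbol Ddit3, between which reads may have been divided or left uncounted.

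Creb3l1 and Creb3l2 encode OASIS and BBF2H7, membrane-bound factors related to ATF6 that are known for driving secretory genes in osteoblasts and in chondrocytes. Creb3l1 had 273, 82.8, 193 and 66.8 reads in the control libraries and 473, 373, 361 and 365 in those labelled knockout. The groups were separate, and the spread was wider among the control libraries, from 66.8 to 273. The difference was 1.57 (SE 0.39, limma adjusted p = 0.0200), and the call was lost without control replicate 2 (limma adjusted p = 0.0568), knockout replicate 1 (0.0504) or knockout replicate 4 (0.0514). Creb3l2 had 657, 636, 705 and 434 reads against 744, 710, 718 and 901, so the groups were narrowly separate, and the difference of 0.35 was not called (SE 0.15, limma adjusted p = 0.119).

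**Figure D3:**
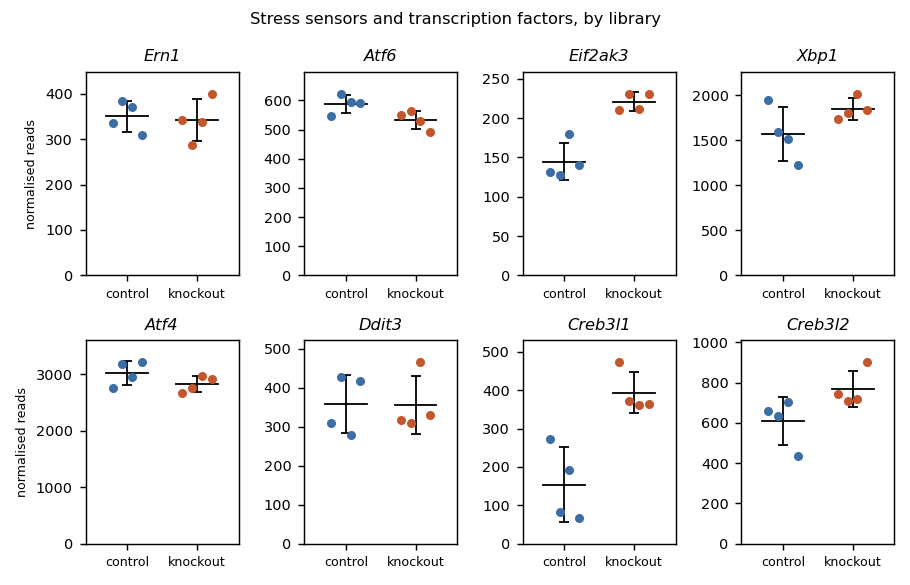
Normalised read counts of the 8 sensor and transcription factor genes in each library (points), with the group mean (line) and SD (bar), n = 4 per group; each vertical axis starts at 0. Eif2ak3 and Creb3l1 are called, with group means of 145 and 221 reads and of 154 and 393 reads.

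On the export side, 4 of 9 genes rose, where 11.6% of all genes tested did, among them both retrieval receptors of the list. Kdelr2 and Kdelr3 encode receptors that bind the KDEL-type tail of escaped ER chaperones in the Golgi and bring them back. Kdelr2 had 508, 409, 544 and 388 reads in the control libraries and 1014, 1083, 761 and 930 in those labelled knockout, a 2.05-fold rise (log2 difference 1.04, SE 0.14, limma adjusted p = 0.00398). Kdelr3 had 156, 105, 214 and 95.3 against 346, 426, 258 and 393, a difference of 1.36 (SE 0.26, limma adjusted p = 0.00832). Both had separate groups. Per kilobase of exon, Kdelr2 was the more abundant in both groups, at 253 and 518, with Kdelr3 at 101 and 252. Kdelr1, a related receptor gene outside the list, differed by 0.25 with overlapping groups and was not called (SE 0.08, limma adjusted p = 0.055). Tmed3 encodes a p24 cargo receptor that cycles between ER and Golgi. It had the smallest p of the 48 genes, with 413, 436, 505 and 416 reads in the control libraries and 793, 952, 810 and 966 in those labelled knockout, a difference of 0.99 (SE 0.10, limma adjusted p = 0.00397). Tmed2, a more abundant p24 relative, did not follow it, at 2362, 2520, 2333 and 2358 reads against 2332, 2428, 2437 and 2575 (difference 0.03, interval -0.13 to 0.19).

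Among Sec24d, Sec23a, Sec31a, Sar1a and Mia3, the genes of the COPII coat and cargo loading, Sec24d alone was called. Sec24d, a cargo-binding subunit of the inner coat whose human counterpart is mutated in a bone fragility syndrome, had 260, 177, 383 and 227 reads in the control libraries and 567, 566, 357 and 730 in those labelled knockout. Control replicate 3 lay above knockout replicate 3, and the difference was 1.09 (SE 0.26, limma adjusted p = 0.0167), a call lost without knockout replicate 4 (limma adjusted p = 0.0519). Sec23a is its inner-coat partner, mutated in cranio-lenticulo-sutural dysplasia. Sec23a stood at 1702, 1656, 1427 and 1708 reads against 1583, 1457, 1120 and 1165, and its difference of -0.30 was not called (SE 0.12, limma adjusted p = 0.106). Mia3 encodes TANGO1, the receptor that loads bulky procollagen at ER exit sites. It had 1417, 1323, 1663 and 1506 reads in the control libraries and 1288, 1279, 1135 and 1166 in those labelled knockout, lower in 4 of 4 than in any control library. Its difference of -0.28 stood just outside the threshold (SE 0.09, limma adjusted p = 0.0527), and DESeq2 called it (DESeq2 adjusted p = 0.0415). Sec31a, of the outer coat, differed by 0.29 (SE 0.11, limma adjusted p = 0.0852), and was called when replicate 3 of either group was left out. Sar1a, the small GTPase that starts coat assembly, differed by 0.07 (SE 0.08).

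The unfolded protein response element TGACGTGG, a form that XBP1 and the CREB3L factors can bind, was found in the promoter windows of Sec23a, Sec24d and Kdelr3, 3 of 39 genes (7.69%), and in 0.714% of all genes with a window. Its reverse complement holds the letters CCACG of the ERSE, though no window of these 3 genes matched the full ERSE. The stretches are shown because Sec24d and Kdelr3 rose and Sec23a did not. The match of Sec23a lies after its RefSeq start site. In the annotation used for exons, Sec24d starts at chr3:123267455, so by that start its match lies inside the gene too.
Sec24d (chr3:123267459-123267488, plus strand): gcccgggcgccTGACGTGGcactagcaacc
Kdelr3 (chr15:79516348-79516407, plus strand, match on the opposite strand): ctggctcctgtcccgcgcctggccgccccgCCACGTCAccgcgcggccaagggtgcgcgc
Sec23a (chr12:59011993-59012022, minus strand): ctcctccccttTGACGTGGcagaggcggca

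**Figure D4:**
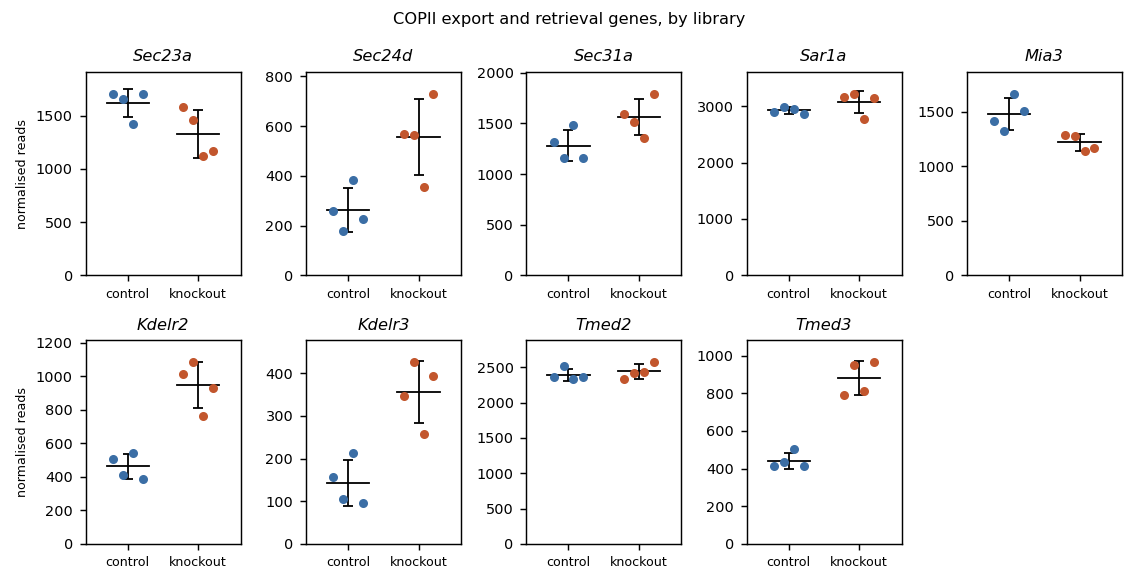
Normalised read counts of the 9 export and retrieval genes in each library (points), with the group mean (line) and SD (bar), n = 4 per group; each vertical axis starts at 0. Sec24d, Kdelr2, Kdelr3 and Tmed3 are called higher, while Sec23a and Mia3 have lower means in the libraries labelled knockout, 1331 against 1623 and 1217 against 1477.

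At the entry side of the pathway, 2 of 12 genes rose (16.7%), near the 11.6% of all genes tested that rose. Sec61a1 encodes the pore-forming subunit of the translocation channel. It had 566, 429, 625 and 412 reads in the control libraries and 850, 897, 633 and 975 in those labelled knockout, a difference of 0.73 (SE 0.17, limma adjusted p = 0.0164). The groups were narrowly separate, at control replicate 3 and knockout replicate 3, and the call was lost without knockout replicate 4 (limma adjusted p = 0.0522). The small subunits of the same channel gave other values. Sec61b had 379, 306, 316 and 208 reads against 406, 452, 377 and 449, a difference of 0.51 just outside the threshold (SE 0.17, limma adjusted p = 0.0548). It was called in 4 of 20 alternatives. Sec61g had 283, 341, 377 and 413 against 333, 443, 286 and 339, a difference of -0.02 (interval -0.37 to 0.33). Ssr2, a subunit of the translocon-associated TRAP complex, had 542, 570, 489 and 414 reads in the control libraries and 799, 699, 564 and 719 in those labelled knockout. Knockout replicate 3 overlapped the control group, the difference was 0.46 (SE 0.13, limma adjusted p = 0.0333), and the call was lost when any of control replicates 3 and 4 and knockout replicates 1, 2 and 4 was left out (limma adjusted p = 0.0593 to 0.0867). The other TRAP subunits were not called, with differences of 0.23 for Ssr1, -0.05 for Ssr3 and 0.18 for Ssr4. The signal peptidase subunits Spcs1, Spcs2 and Spcs3 differed by 0.01, -0.04 and 0.15, and the post-translational entry factors Sec62 and Sec63 by 0.04 and 0.17, none of them called.

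Unequal movement of related genes was tested directly on 7 pairs, as the log2 ratio of the first gene to the second in each library, by an exact two-sided permutation test over the 70 assignments of the libraries, whose smallest possible p is 0.0286. For 3 pairs the groups were separate. The ratio of Tmed3 to Tmed2 was -2.44 ± 0.15 (SD, n = 4) in the control libraries and -1.48 ± 0.11 in those labelled knockout, a change of 0.96 (exact p = 0.0286). The ratio of Fkbp10 to Fkbp9 changed from -1.96 ± 0.50 to -1.05 ± 0.11, by 0.90 (exact p = 0.0286), and that of Fkbp14 to Fkbp7 from 0.77 ± 0.23 to 0.19 ± 0.23, by -0.58 (exact p = 0.0286). Adjusted over the 7 pairs these exact p-values became 0.0667, so none passed 0.05. Creb3l1 to Creb3l2 changed by 1.22 (exact p = 0.0571, adjusted 0.1). The ratios of Kdelr3 to Kdelr2 (0.33, exact p = 0.143), Dnajb11 to Dnajb9 (0.18, exact p = 0.114) and Calr to Canx (0.02, exact p = 0.771) had overlapping groups.

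Within each group, some libraries held the highest or the lowest place for many of the genes, though not in every role. Control replicate 3 was the highest control library for 28 of the 48 genes and control replicate 4 the lowest for 30. Among the libraries labelled knockout, replicate 3 was the lowest for 34 of the 48 and replicate 4 the highest for 21. The same counts over all genes were not taken, so these places may not be particular to the 48. Summed over the 48 genes, the values made up 0.311%, 0.281%, 0.326% and 0.272% of the control libraries and 0.422%, 0.443%, 0.345% and 0.469% of those labelled knockout. The mean log2 value of the 10 isomerase and oxidase genes was 8.99, 8.75, 9.29 and 8.66 in the control libraries and 9.81, 9.84, 9.53 and 9.93 in the others. For these genes, control replicate 3 and knockout replicate 3 are thus the neighbours across the groups. The export and retrieval means were separate too (9.53 to 9.87 against 9.90 to 10.24). So were those of the sensors and factors, at 9.08, 8.95, 9.07 and 8.76 against 9.27, 9.21, 9.32 and 9.31. In that role knockout replicate 3 was the highest. The chaperone means of 9.78, 9.68, 9.90 and 9.55 against 9.81, 9.97, 9.74 and 9.97 overlap. The translocon means do as well (9.46 to 9.67 against 9.59 to 9.86).

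**Figure D5:**
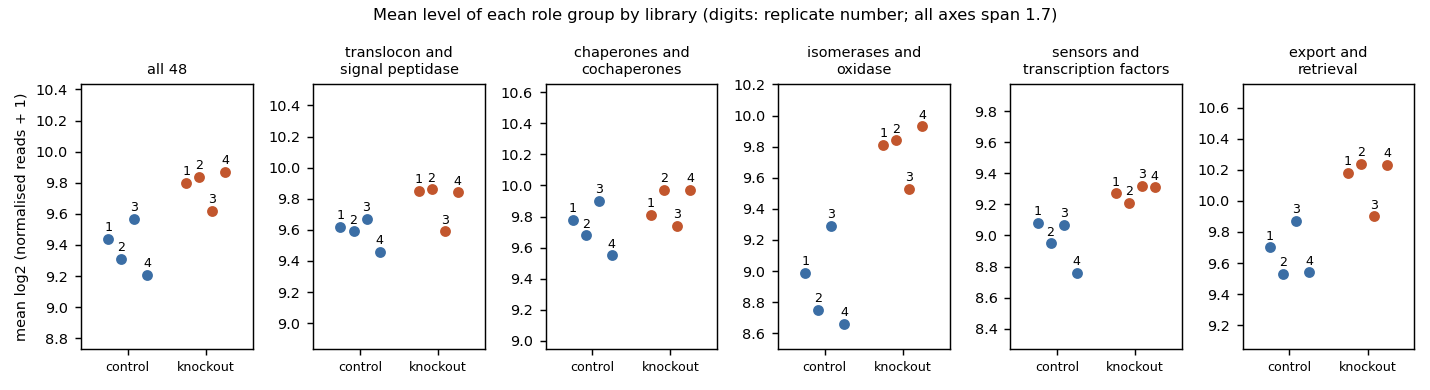
Mean of log2(normalised reads + 1) over the genes of each role in each library, with the replicate number above each point and axes of equal span that do not start at 0. The isomerase and oxidase means are separate between the groups, 8.66 to 9.29 against 9.53 to 9.93. The means of export and retrieval, of the sensors and factors and of all the genes together are separate too. The chaperone and translocon means overlap.

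Marker lists of the tissues in a knee went both ways, some with mostly positive differences and others with negative ones. In a bulk sample, fewer cells of a type and less RNA per cell cannot be told apart. Of 14 fibroblast markers 14 had a difference above 0 and 9 were called, and their summed level was 155000, 94400, 231000 and 83900 in the control libraries and 345000, 369000, 245000 and 426000 in those labelled knockout. Control replicates 3 and 4 and knockout replicates 3 and 4 hold the same extreme places within their groups for the fibroblast sum as for the isomerase mean. Other lists were ordered otherwise. The osteoblast and osteoclast sums were highest in replicate 1 and lowest in replicate 2 of both groups. Chondrocyte and macrophage sums were lowest in knockout replicate 3 and highest in knockout replicate 4. Among the controls, the chondrocyte sum was highest in replicate 1 and the macrophage sum lowest in replicate 2. Osteoblast markers were above 0 in 12 of 12 with 6 called, with sums of 2670 to 13100 against 13900 to 30900. Chondrocyte markers were above 0 in 10 of 11 with 2 called (3330 to 8610 against 9940 to 13600), and macrophage markers in 10 of 10 with 9 called (3050 to 7140 against 11000 to 15200). Osteoclast markers were above 0 in 8 of 8 with 7 called (1870 to 14100 against 10300 to 39300). Skeletal muscle markers were below 0 in 18 of 18 with 7 called, with sums of 2650000 to 2880000 in the control libraries against 1340000 to 1840000. Plasma cells are rich in ER chaperones, and their list had 1 of 7 tested genes called, with overlapping sums of 1570 to 7840 against 2040 to 8320. Erythroid and neutrophil markers were below 0 in 9 of 9 and 10 of 10 with 0 called, at overlapping sums, and mast cell markers above 0 in 4 of 4 with 1 called (50.5 to 122 against 104 to 188). No listed marker in the table was at 0 in all libraries. The part of these lists in the differences of the 48 genes was not tested apart from a fit with the muscle score as a covariate, under which 0 of all genes and 0 of the 48 were called, and 2 of the 48 had an unadjusted limma p below 0.05. The score differed mostly by group, which held 84.1% of its variance. With another scaling, chosen after seeing the data, in which each library was divided by the total of its genes apart from the 50 highest and the lists for muscle, neutrophils and erythroid cells, the calls over all genes were 2708 higher and 785 lower in place of 1732 and 1729. The median difference of all genes was then 0.15, and 27 of the 48 rose and 0 fell. Of the 11 members with a difference below 0, 8 lay above 0 under this scaling, and Dnajb9, Sec23a and Mia3 did not.

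Other genes of the pathway, from 7 lists written for this comparison, were measured in the same fit. Of 122 listed names, 118 were found and 116 were abundant enough to test. Of the 116, 25 rose and 11 fell (31.0% called), with a median difference of 0.08, where 23.2% of all genes tested were called, 11.6% in each direction. The shares for COPI and retrieval (16.7%) and further COPII genes (18.8%) lay below that background, and those for ER-associated degradation (27.8%), PERK and ATF4 targets (28.6%) and further translocation (29.4%) lay near it. The further folding genes had the highest share, with 8 of 16 higher and 1 lower. Pdia5, another disulfide isomerase gene, rose by 1.40 (limma adjusted p = 0.00432) and Fkbp2, another small prolyl isomerase gene, by 0.68 (limma adjusted p = 0.00456), while Creld1 fell by 0.49 on the log2 scale (limma adjusted p = 0.00882). Oligosaccharyltransferase and glycan-trimming genes had 7 of 17 higher and 0 lower, among them Ddost (0.44, limma adjusted p = 0.0107) and Tusc3 (1.17, limma adjusted p = 0.0111).

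Genes of ER-associated degradation, which clears misfolded protein, went both ways, with 3 of 18 higher and 2 lower. Os9, a lectin of that system, rose by 0.59 (limma adjusted p = 0.00714) and Edem1 by 0.78 (limma adjusted p = 0.0139). Herpud1, a widely used marker of ER stress, fell by 0.35 on the log2 scale (limma adjusted p = 0.0150), a call lost with quantile normalisation (0.134) and with the scaling on the total (0.0953). Of 14 PERK and ATF4 target genes, 3 rose and 1 fell. Bbc3 (0.82, limma adjusted p = 0.0156) and Slc3a2 (0.30, limma adjusted p = 0.0328) were higher, and Ppp1r15a, which encodes the GADD34 subunit that reverses PERK signalling, fell by 0.44 (limma adjusted p = 0.0456). The call of Ppp1r15a was lost in 6 of the 8 fits without 1 library, all but those without replicate 3 of either group (limma adjusted p = 0.0810 to 0.108), and it held in 9 of 20 alternatives. Slc3a2 lost its call in 5 of these fits, those lacking control replicates 2 and 4 and knockout replicates 1, 3 and 4 in turn (0.0539 to 0.0862).

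Further COPII genes had 1 of 16 higher and 2 lower. Sec16b rose by 1.19 (limma adjusted p = 0.0110), and Sar1b and Sec31b, paralogues of members of the main list, fell by 0.61 (limma adjusted p = 0.0150) and 0.54 (limma adjusted p = 0.0326). The groups of Sec31b overlapped, and its call was lost in 6 of the 8 fits without 1 library, all but those without replicate 3 of either group (limma adjusted p = 0.0506 to 0.0918), and with the scaling on the total (0.0895). Sar1b lost its call with quantile normalisation (0.113). COPI and retrieval genes had 2 of 18 higher, Arf4 (0.86, limma adjusted p = 0.0125) and Copz2 (0.45, limma adjusted p = 0.0220), and 1 lower, Tmed5, which fell by 0.37 (limma adjusted p = 0.0312). Copz2 was not called without knockout replicate 1 (0.0581) or 4 (0.0528), and Tmed5 was called in 2 of the 8 fits, those without control replicate 1 or knockout replicate 3 (0.0519 to 0.0828 in the others). Further translocation genes had 1 of 17 higher, Tram1 (0.82, limma adjusted p = 0.00757), and 4 lower, among them Srpr, the signal recognition particle receptor gene, which fell by 0.43 (limma adjusted p = 0.0133), and Emc1, which fell by 0.36 (limma adjusted p = 0.0272). Srpr lost its call with quantile normalisation (0.185) and the scaling on the total (0.0505). Emc1 lost it with that scaling (0.128) and when any of control replicates 1, 2 and 4 and knockout replicates 1 and 2 was left out (0.0532 to 0.0791). Without any 1 library, the calls over these 7 lists ranged from 19, without knockout replicate 4, to 43.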

How the data were processed

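Per the labels, the authors aligned reads to mm10, counted them with featureCounts and normalised with DESeq2; the submitters' processing notes also name HISAT2. Versions, annotation and strand setting are not given in the sources used here. The deposited signal is a size-factor-scaled read count. In each column 100% of values were whole multiples of the smallest within 0.01, so reads were recovered for edgeR 4.0.16 and DESeq2 1.42.0, both used as alternatives. This step was near 1 in knockout replicate 1 (0.997) and control replicate 2 (1.01). Its inverse there, 1.0027 and 0.990668, equalled the size factor recomputed by median of ratios. The value columns not mapped to a sample number 0.

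Genes that reached 10 normalised reads in 4 or more libraries were tested with limma 3.58.1 (trend, pseudocount 1, group as the one term) and adjusted by Benjamini-Hochberg over all of them. On the recovered reads edgeR called 3324 genes and DESeq2 4125, against 3461 with limma. The pipeline was tested on simulated data. Gene models are from GENCODE M21 on the same build, and 99.2% of names matched. Replicate numbers are not stated to mark a litter or batch. The members and lists were chosen with earlier results of these data known. Named were all members, with values per library for sensors, factors, paired genes and the 3 of smallest p per role, and from each further list at most 2 called genes in each direction, of smallest p. Hspa5, Sec23a, Sec24d, Mia3 and other members were given in more detail after their values were seen, and Kdelr1 was named then too. The values of 1 gene that the rule names are not reported here.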

Additional observations from a re-analysis of the deposited data

Results flagged for a closer look

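In 11 of 140 groups of 4 libraries examined (70 genes), the highest or lowest library stood apart from the other 3 by more than 0.829 of the group's range; chance alone flags about 1 in 20 groups. Among the libraries labelled knockout, these were Ssr4 in replicate 3 (833 normalised reads, the others 913 to 928), Spcs2 in replicate 1 (1005, the others 865 to 882), Sdf2l1 in replicate 2 (115, the others 82.6 to 87.1), Ddit3 in replicate 3 (465, the others 310 to 330), Creb3l1 in replicate 1 (473, the others 361 to 373) and Slc3a2 in replicate 2 (702, the others 771 to 777). Among the control libraries, they were Dnajb9 in replicate 4 (584, the others 619 to 621), Tmed2 in replicate 2 (2520, the others 2333 to 2362), and 3 genes in replicate 3, namely Loxl2 (1135, the others 282 to 349), Tusc3 (138, the others 75.6 to 81.1) and Tram1 (594, the others 426 to 436).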

How the results depend on the processing

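The 19 calls were found in full with pseudocounts of 0.5 and 5, no filter, a filter at 50, TMM scaling, median-of-ratios scaling without the tissue lists, edgeR and DESeq2. With quantile normalisation 18 of them were found, and 24 members were called in all, where 17.2% of all genes were called. The replicate numbers could not be taken as pairing the samples, since same-numbered deviations correlated at 0.21, -0.12, -0.23 and -0.06. With the replicate block, 2018 of all genes, 12 of the members and 18 of the other pathway genes were called. With the muscle score as covariate, 0, 0 and 0 were called and the median of the members was 0.05, the cause of which was not tested; it was 0.39 with quantile normalisation and 0.39 with the scaling on the total of the genes left. Leaving out single libraries gave 1751 (without knockout replicate 4) to 3841 calls over all genes, with 1887 without control replicate 2 and 2194 without control replicate 4. It gave 11 to 21 for the members and 19 to 43 for the other pathway genes (19 without knockout replicate 4, 21 without control replicate 2 or 4). Directions turned for members near 0 and, with the muscle covariate, for others too, and the cause was not tested. With the muscle covariate the log2 differences became -0.03 for Sec61a1, -0.25 for Sec62, -0.15 for Sec63, -0.25 for Spcs1, 0.06 for Spcs2, -0.12 for Spcs3, -0.09 for Hspa5, -0.14 for Calr, -0.13 for Canx, -0.49 for Dnajc3, -0.29 for Hyou1, -0.09 for Fkbp9, 0.07 for Atf6, 0.62 for Ddit3, -0.24 for Sec24d, -0.19 for Sec31a, -0.05 for Sar1a, -0.02 for Tmed2, -0.15 for Edem1, -0.13 for Sec16b, 0.19 for Sec31b, -0.11 for Arf4 and 0.15 for Tmed5. With quantile normalisation they were 0.19 for Ssr3, 0.04 for Spcs2, 0.03 for Dnajb11 and 0.13 for Atf4. Dnajb11 was at 0.01 with edgeR and 0.00 with DESeq2. With the scaling on the total they were 0.13 for Sec61g, 0.09 for Ssr3, 0.11 for Spcs2, 0.14 for Dnajb11, 0.11 for Ern1, 0.01 for Atf6, 0.05 for Atf4 and 0.14 for Ddit3. Over the fits without 1 library, ranges that crossed 0 were -0.14 to 0.07 for Sec61g, -0.13 to 0.04 for Ssr3, -0.03 to 0.09 for Spcs1, -0.10 to 0.01 for Spcs2, -0.05 to 0.05 for Dnajb11, -0.05 to 0.16 for Dnajc3, -0.03 to 0.07 for Hyou1, -0.12 to 0.04 for Ern1 and -0.14 to 0.09 for Ddit3.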
